A study of Homo sapiens with 8 samples.

Results

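The 34 mitosis and spindle checkpoint genes described here encode the cyclin-dependent kinase CDK1 and its cyclins, the mitotic kinases, the spindle checkpoint, the centromere and kinetochore, the spindle motors and the proteins that start anaphase. They were chosen by gene name, and all 34 were found among the 25377 genes of the RNA table, each with an adjusted p. By the gene that HOMER, an annotation program, assigned to each peak, 75 of the 70312 ATAC peaks belonged to 33 of them, and no peak was assigned to AURKA. The cells were Raji, a human Burkitt lymphoma B cell line. RGS-SE knockout cells, made by CRISPR/Cas9 deletion of a super-enhancer near RGS1 and RGS13 on chromosome 1 (labelled interval 192515157 to 192741754, GRCh38), were set against wild-type Raji cells. The deletion used a Cas9 vector and 2 guide plasmids under a short puromycin selection, and single clones were taken. The number of clones is not given in the sources used here, so genotype and clone cannot be told apart. RNA-seq of polyadenylated RNA and ATAC-seq, which marks open chromatin by transposase insertion, were each made from 2 knockout and 2 wild-type libraries, 8 libraries in all.

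Mitosis genes are switched on together late in the cell cycle. In resting or early cycling cells the DREAM complex holds many of them silent, and in dividing cells B-MYB and FOXM1 bound to the MuvB core activate them. MuvB binds a promoter element called the cell cycle genes homology region, through its subunit LIN54, and NF-Y binds the CCAAT boxes that often lie just upstream of it. The spindle checkpoint then holds the anaphase promoting complex inactive until every kinetochore is attached to spindle microtubules.

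The deposited tables give, for each gene or peak, a mean normalised count over the 4 libraries of the assay with a fold change, its standard error (SE) and an adjusted p, and no value per library. The levels printed below are therefore fitted counts, the mean normalised count of each genotype that follows from the overall mean and the fold change, and spread between libraries is carried by the SE. Fold changes were read as knockout over wild type. That reading rests on 1 peak of the 18 in the deleted interval, at a fitted count of 0.186 in knockout cells and 622 in wild-type cells. The other 17 peaks in that interval had log2 fold changes between -0.97 and 1.14 in the authors' deposited table, so accessibility was not lost over the whole of it. The header of neither table names the direction, and the RNA table was read the same way as the ATAC table. Read so, RGS1, a gene next to the super-enhancer, had an RNA log2 fold change of 3.49 (SE 0.18) in the authors' deposited table, higher in knockout cells. If a table were coded the other way, every direction taken from it would turn. The B cell markers MS4A1, CD79A, CD79B, CD22 and PAX5 had mean normalised counts between 3760 and 27701, while the 1 T cell and 4 myeloid markers listed lay between 2.41 (CD3E) and 38.3 (ITGAM). Gene positions below are from GENCODE 44 on GRCh38, and peak positions are as deposited.

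Most of these genes did not differ past the threshold between knockout and wild-type cells, and the few that changed did so in both directions. BUB1 and TTK, both kinases of the spindle checkpoint, rose. CENPA, CDC20, INCENP, BIRC5 and AURKA fell. In the authors' deposited table the remaining 27 had an adjusted p of 0.05 or more by the DESeq2 Wald test. None of the 7 passed a test against a 1.5-fold change, and TTK did not pass once the median of the peaks around it or of its chromosome was subtracted. Thus 5.88% of the members were higher in knockout cells, against 9.89% of the 17013 genes tested, and 14.7% were lower, against 9.28% of all genes tested. Among genes with a mean count of at least 100, which every member exceeded, 13.2% were higher and 13.1% were lower, and the share of members that fell was near 13.1%.

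The members' differences were small beside those of other genes. Their median log2 fold change was -0.15 in the authors' deposited table, against 0.02 for all genes tested and -0.01 for genes with a mean of at least 100. The median size of the log2 fold change, regardless of sign, was 0.21 for the members and 0.35 for genes with a mean of at least 100. The median SE was 0.165 for the members and 0.214 for those genes, so these sizes were not compared at like precision. Of the 34 log2 fold changes, 24 were below 0 and 10 above it, and among the 27 members that did not pass the threshold 19 were below 0 and 8 above it. The fitted counts of all 34 genes summed to 227478 in knockout cells and 241214 in wild-type cells, so that the knockout total was 94.3% of the wild-type total. The 95% intervals of the 27 members that did not pass lay between log2 fold changes of -0.74 and 0.69.

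**Figure D1:**
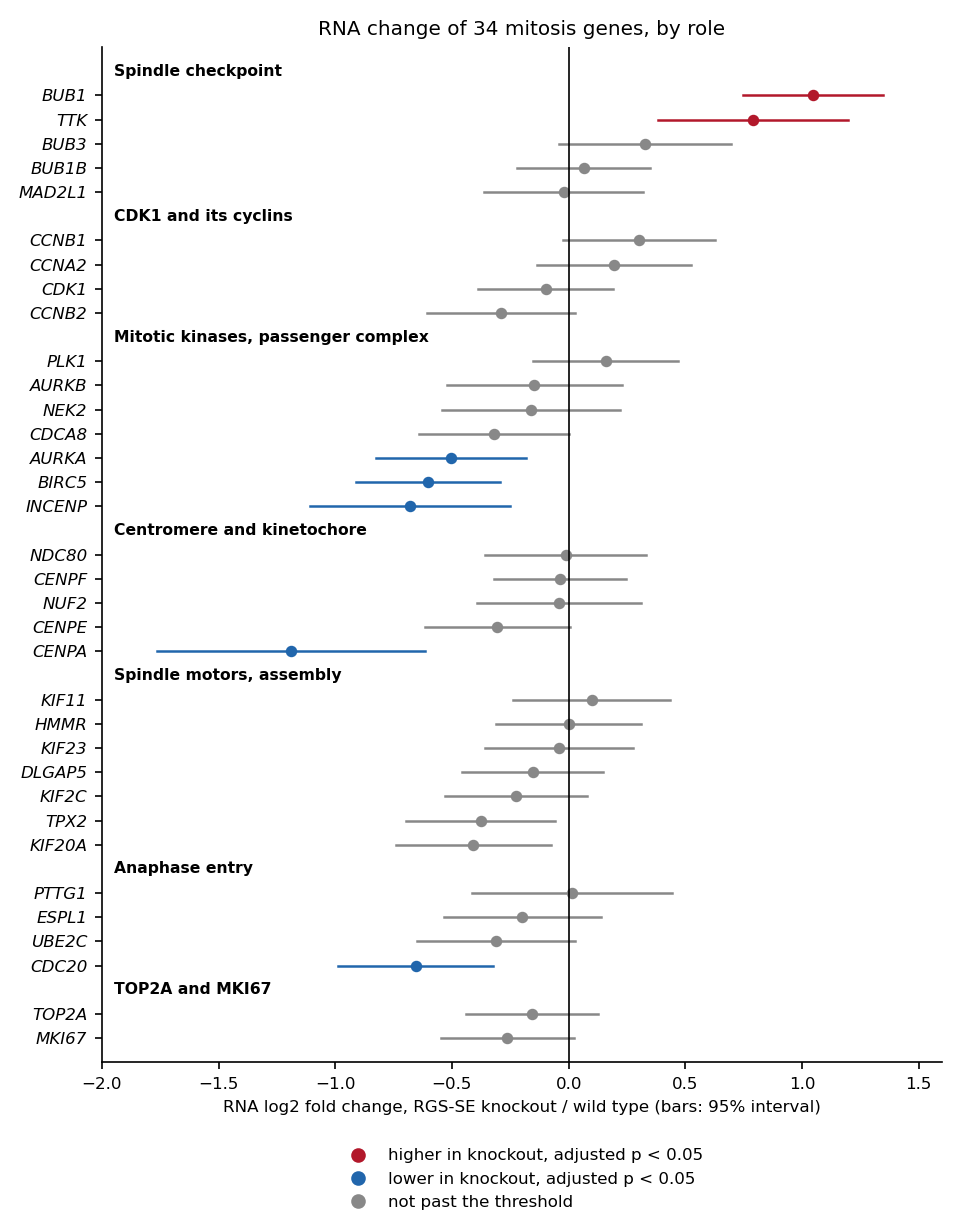
RNA log2 fold change, RGS-SE knockout over wild type, of the 34 mitosis genes grouped by role, as points with 95% intervals computed from the deposited standard errors. BUB1 (1.05) and TTK (0.79) lie to the right, CENPA (-1.19) lies farthest to the left, and 27 genes in grey did not pass the threshold.

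All 34 were well expressed in Raji cells. Per kb of exon, 26 of them stood at or above the 90th percentile of the genes tested. TPX2, which targets Aurora A to spindle microtubules, had the highest level at 4655 fitted counts per kb in knockout cells and 6041 in wild-type cells. CENPA, the histone H3 variant that marks centromeres, had the lowest, with 134 fitted counts per kb in knockout cells and 307 in wild-type cells. BUB1 stood at 1895 fitted counts per kb in knockout cells and 918 in wild-type cells. Together the members took 0.714% of the RNA counts.

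**Figure D2:**
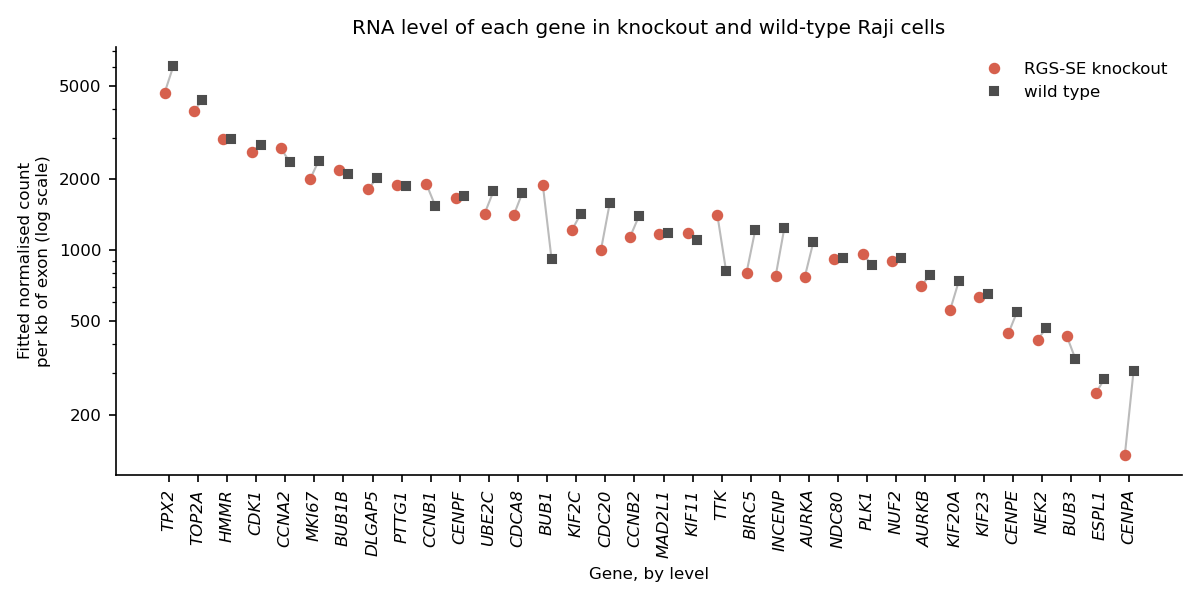
Fitted normalised RNA count per kb of exon (log scale) of each gene in RGS-SE knockout cells (circles) and wild-type cells (squares), ordered by level, with a grey line joining the 2 genotypes. The steepest lines belong to BUB1, TTK and CENPA, while TPX2 and TOP2A lead in both genotypes.

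The promoters of the members whose RNA or promoter accessibility passed the threshold and that have a RefSeq window are shown next, because the start of each gene lies within an ATAC peak whose change can be set beside its RNA. Each line holds the 150 bases before the start in RefSeq (build GRCh38.p14), 5′ to 3′ on the gene's strand. Capitals mark TTTGAA or TTCGAA, the letters searched for the cell cycle genes homology region, and CCAAT or its reverse complement ATTGG. The windows lie at chr2:110678064-110678213 on the minus strand for BUB1, chr4:120066849-120066998 on the minus strand for MAD2L1, chr16:23678739-23678888 on the plus strand for PLK1, chr11:62123861-62124010 on the plus strand for INCENP, chr1:43358831-43358980 on the plus strand for CDC20, chr5:69167000-69167149 on the plus strand for CCNB1 and chr2:26785906-26786055 on the plus strand for CENPA.
BUB1: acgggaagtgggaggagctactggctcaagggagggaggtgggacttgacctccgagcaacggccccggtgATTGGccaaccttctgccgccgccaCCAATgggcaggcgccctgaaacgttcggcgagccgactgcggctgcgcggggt
MAD2L1: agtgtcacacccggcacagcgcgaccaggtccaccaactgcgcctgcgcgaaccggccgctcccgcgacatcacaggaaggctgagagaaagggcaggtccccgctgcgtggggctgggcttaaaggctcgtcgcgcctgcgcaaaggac
PLK1: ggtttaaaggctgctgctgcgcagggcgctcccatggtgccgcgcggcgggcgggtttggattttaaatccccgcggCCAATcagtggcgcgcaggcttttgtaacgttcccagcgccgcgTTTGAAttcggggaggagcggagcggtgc
INCENP: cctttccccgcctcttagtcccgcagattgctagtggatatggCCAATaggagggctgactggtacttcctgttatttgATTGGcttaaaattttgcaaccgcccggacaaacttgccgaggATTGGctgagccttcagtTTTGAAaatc
CDC20: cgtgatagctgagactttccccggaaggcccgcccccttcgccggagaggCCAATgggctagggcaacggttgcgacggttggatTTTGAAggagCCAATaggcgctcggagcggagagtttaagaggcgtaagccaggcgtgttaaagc
CCNB1: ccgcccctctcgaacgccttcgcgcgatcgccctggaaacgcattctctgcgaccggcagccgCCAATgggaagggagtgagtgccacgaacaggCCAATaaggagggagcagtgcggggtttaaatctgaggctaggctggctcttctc
CENPA: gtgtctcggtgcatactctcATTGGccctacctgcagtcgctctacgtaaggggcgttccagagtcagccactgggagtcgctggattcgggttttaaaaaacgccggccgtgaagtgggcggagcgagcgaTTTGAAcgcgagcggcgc
In these 150 bases CDC20, PLK1, INCENP and CENPA held both kinds of motif, BUB1 and CCNB1 held a pair of CCAAT boxes each and no TTTGAA or TTCGAA, and MAD2L1 held neither. CDC20 and INCENP, which fell, and PLK1, whose RNA did not pass the threshold, thus had the same pair of motif kinds. The absences hold for the printed bases only. In the wider windows searched below, 250 bases before and 50 after the start, BUB1 had TTCGAA just after its start. There MAD2L1 had ATTGG upstream of the printed bases and TTTGAA after its start. BUB1 and MAD2L1 therefore held both kinds of motif in those windows, while CCNB1 still held no TTTGAA or TTCGAA.

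These letters were common in the promoters of the whole group. RefSeq windows of 250 bases before and 50 after the start were matched for 28 of the 34 members, and those of AURKA, BIRC5, BUB3, TPX2, TTK and UBE2C were not used here. On either strand, TTTGAA or TTCGAA was found in 20 of the 28 (71.4%), against 16.4% of 35116 RefSeq promoters. CCAAT was found in 23 (82.1%), against 34.6% of promoters, and 2 or more CCAAT in 16 (57.1%), against 10.8%. Both kinds of motif were present in 17 (60.7%), against 6.38% of promoters. Both strands were searched, TTCGAA is its own reverse complement, and matches that share bases were counted for both motifs. A member was counted if any of its windows held the motif, while the share of promoters was taken over single windows. Members with more than 1 window, such as CDK1 and PTTG1, thus had more bases searched. With the 250 bases before the start alone, TTTGAA or TTCGAA was found in 15 of the 28 (53.6%), against 14.3% of promoters.

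Among the spindle checkpoint genes, the RNA of 2 of 5 rose, against 9.89% of all genes tested. That of none fell, against 9.28%. The role groups are small and were chosen with earlier results of these data known. BUB1, the kinase that phosphorylates histone H2A at the inner centromere and recruits shugoshin and BUBR1 (chr2:110637528-110678063, minus strand), had fitted counts of 11947 in knockout cells and 5786 in wild-type cells. Its log2 fold change was 1.05 (SE 0.15, Benjamini-Hochberg adjusted p = 4.52e-10, by DESeq2's Wald test, in the authors' deposited table), and its 95% interval reached from 0.75 to 1.35. TTK, also called MPS1, the kinase that starts checkpoint signalling at unattached kinetochores (chr6:80003887-80042527, plus strand), had 6436 in knockout cells and 3722 in wild-type cells. Its log2 fold change was 0.79 (SE 0.21, DESeq2 adjusted p = 0.00155) in the authors' deposited table. With the median of the surrounding peaks subtracted, the TTK value became 0.17 and did not pass, while BUB1 still passed.

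BUB3, BUB1B and MAD2L1 did not pass. They encode the proteins that, with CDC20, form the mitotic checkpoint complex. BUB3, the partner that docks BUB1 and BUBR1 on the kinetochore, had fitted counts of 3545 in knockout cells and 2827 in wild-type cells (DESeq2 adjusted p = 0.239 in the authors' deposited table). BUB1B, which encodes BUBR1, had 9793 in knockout cells and 9367 in wild-type cells. MAD2L1, which encodes MAD2, had 6443 in knockout cells and 6536 in wild-type cells. Their 95% intervals covered log2 fold changes of -0.04 to 0.69 for BUB3, -0.22 to 0.35 for BUB1B and -0.36 to 0.32 for MAD2L1.

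CDK1 and its cyclins, which drive entry into mitosis, did not pass the threshold in 4 of 4 genes. CDK1 itself had fitted counts of 10244 in knockout cells and 10963 in wild-type cells, and its log2 fold change of -0.10 (SE 0.15) in the authors' deposited table was smaller than its error. CCNB1, the main mitotic cyclin, had 4641 in knockout cells and 3769 in wild-type cells, and CCNB2, another B-type cyclin, had 3139 in knockout cells and 3836 in wild-type cells. Their log2 fold changes of 0.30 (SE 0.17) and -0.29 (SE 0.16) in the authors' deposited table lay on opposite sides of 0, with DESeq2 adjusted p of 0.215 and 0.220. CCNA2, the cyclin of S phase and early mitosis, had 7456 in knockout cells and 6517 in wild-type cells (log2 fold change 0.19, SE 0.17, in the authors' deposited table).

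The mitotic kinases and the chromosomal passenger complex had 3 of 7 genes lower in knockout cells and none higher. Over all genes tested 9.28% were lower and 9.89% higher. INCENP and BIRC5 (survivin) are subunits of the passenger complex, which carries Aurora B to centromeres to correct faulty attachments. INCENP (chr11:62123998-62153169, plus strand) had fitted counts of 3455 in knockout cells and 5537 in wild-type cells, with a log2 fold change of -0.68 (SE 0.22, DESeq2 adjusted p = 0.0140) in the authors' deposited table. BIRC5 (chr17:78214186-78225636, plus strand) had 3061 in knockout cells and 4649 in wild-type cells, a log2 fold change of -0.60 (SE 0.16, DESeq2 adjusted p = 0.00132) in the authors' deposited table. AURKA, the Aurora kinase of centrosomes and spindle poles (chr20:56369389-56392337, minus strand), had 2250 in knockout cells and 3187 in wild-type cells, a log2 fold change of -0.50 (SE 0.16, DESeq2 adjusted p = 0.0156) in the authors' deposited table. Knockout levels were thus 62.4% of wild type for INCENP, 65.8% for BIRC5 and 70.6% for AURKA.

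The 2 other subunits of the passenger complex did not pass. CDCA8 (borealin) had fitted counts of 3391 in knockout cells and 4228 in wild-type cells, with an interval of -0.64 to 0.00 on the log2 scale. AURKB, the kinase subunit, had 1583 in knockout cells and 1752 in wild-type cells. All 4 passenger complex genes thus had log2 fold changes below 0, and 2 passed the threshold. PLK1, the Polo kinase of centrosomes and kinetochores (chr16:23677656-23690367, plus strand), had 4608 in knockout cells and 4124 in wild-type cells (log2 fold change 0.16, SE 0.16, in the authors' deposited table). A lncRNA on the other strand covers 11.6% of PLK1's exonic bases, and the strand setting of the counting is not given in the sources used here. Some other members are overlapped to a smaller extent. EXOSC9 on the other strand covers 9.24% of CCNA2's exonic bases, and PAK6 on the same strand covers 5.38% of BUB1B's. NEK2, a kinase of centrosome separation, had 1290 in knockout cells and 1444 in wild-type cells.

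Of the 5 centromere and kinetochore genes, CENPA fell and the other 4 did not pass. CENPA (chr2:26764289-26801067, plus strand) had fitted counts of 262 in knockout cells and 598 in wild-type cells, so that the knockout level was 43.9% of the wild-type level. Its log2 fold change of -1.19 (SE 0.29, DESeq2 adjusted p = 0.000614) in the authors' deposited table was the lowest of the 34, and its error was the largest. In the annotation, exons of SLC35F6 on the same strand cover 7.08% of CENPA's exonic bases. CENPE, the kinetochore motor that brings chromosomes to the spindle equator, had 4407 in knockout cells and 5444 in wild-type cells, with an interval of -0.61 to 0.00 on the log2 scale. The large kinetochore protein CENPF had 20753 in knockout cells and 21304 in wild-type cells. NDC80 and NUF2, which together grip microtubules within the NDC80 complex, had 3278 and 3037 in knockout cells, against 3307 and 3129 in wild-type cells.

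None of the 7 spindle motor and assembly genes passed the threshold. KIF20A, a kinesin of cytokinesis, had fitted counts of 2153 in knockout cells and 2859 in wild-type cells, with a log2 fold change of -0.41 (SE 0.17, DESeq2 adjusted p = 0.0724) in the authors' deposited table. TPX2 had 16781 in knockout cells and 21778 in wild-type cells, a log2 fold change of -0.38 (SE 0.16, DESeq2 adjusted p = 0.0899) in the authors' deposited table. These 2 had intervals that left out 0 before the adjustment over all genes. KIF11 (Eg5), the motor that pushes the spindle poles apart, had 6308 in knockout cells and 5887 in wild-type cells. HMMR, a spindle pole protein, had 11716 in knockout cells and 11710 in wild-type cells, the smallest difference of the 34. KIF23, the central spindle kinesin, had 4147 in knockout cells and 4268 in wild-type cells. DLGAP5 (HURP), which stabilises kinetochore fibres, had 6550 in knockout cells and 7290 in wild-type cells. KIF2C (MCAK), a microtubule depolymerase, had 4443 in knockout cells and 5195 in wild-type cells. For these 3 the log2 fold changes in the authors' deposited table were -0.04, -0.15 and -0.23, each with an SE between 0.15 and 0.16.

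Among the genes of anaphase entry, CDC20, the coactivator of the anaphase promoting complex and the target of the checkpoint (chr1:43358981-43363203, plus strand), fell. It had fitted counts of 2024 in knockout cells and 3189 in wild-type cells, 63.5% of the wild-type level, with a log2 fold change of -0.66 (SE 0.17, DESeq2 adjusted p = 0.00119) in the authors' deposited table. UBE2C, the ubiquitin-conjugating enzyme that works with the complex, had 1841 in knockout cells and 2285 in wild-type cells and did not pass (DESeq2 adjusted p = 0.216 in the authors' deposited table). Securin and separase, the inhibitor and the protease that cuts cohesin at anaphase, did not pass either. PTTG1 (securin) had 3733 in knockout cells and 3695 in wild-type cells, and ESPL1 (separase) had 2196 in knockout cells and 2521 in wild-type cells.

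TOP2A, the topoisomerase that untangles sister chromatids, and MKI67, which encodes the proliferation marker Ki-67, did not pass. TOP2A had fitted counts of 24854 in knockout cells and 27675 in wild-type cells. MKI67 had 25714 in knockout cells and 30838 in wild-type cells, with a log2 fold change of -0.26 (SE 0.15, DESeq2 adjusted p = 0.220) in the authors' deposited table. With the median of the peaks around it subtracted, MKI67 was called lower (-0.44, Wald test, adjusted p = 0.0190). Pseudogenes named for members, among them BUB1P1, AURKAP1, AURKAP2 and CDC20P1, are annotated, and reads shared with such copies could make those genes' values uncertain. In bulk RNA, fewer cells in mitosis and less RNA per mitotic cell cannot be told apart.

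The other genes of the pathway were read from 6 lists of 110 genes, all tested, of which 4 rose (3.64%) and 17 fell (15.5%), with a median log2 fold change of -0.11. Over all genes tested 9.89% were higher and 9.28% lower, and at a mean of at least 100 the shares were 13.2% and 13.1%, so the share that fell was near that of expressed genes. Of 31 further centromere and kinetochore genes, 7 fell (22.6%) and none rose. With the median of the surrounding peaks subtracted, 3 of these 7, CENPT, SKA1 and CENPN, did not pass. CENPL and CENPT, parts of the inner kinetochore network on CENP-A chromatin, and SKA1, which couples kinetochores to microtubules, had log2 fold changes of -1.16 (SE 0.21), -0.81 (SE 0.22) and -0.62 (SE 0.20) in the authors' deposited table. Of 16 anaphase promoting complex genes, the subunit CDC16 rose with a log2 fold change of 0.88 (SE 0.23), while the chain-extending enzyme UBE2S and the coactivator FZR1 fell with -0.64 (SE 0.18) and -0.58 (SE 0.20) in the authors' deposited table. The other 13 genes of that complex did not pass.

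Of 7 genes of checkpoint and cohesion protection, CDCA5 (sororin), which guards cohesion until anaphase, fell with a log2 fold change of -0.78 (SE 0.24) in the authors' deposited table. Of 17 cohesin and condensin genes, the condensin subunit NCAPD2 fell with -0.61 (SE 0.15) and the cohesin subunit RAD21 with -0.42 (SE 0.15) in the authors' deposited table. With the median of the surrounding peaks subtracted, NCAPD2 did not pass and RAD21 was called higher. Of 24 genes of the spindle, centrosome and cytokinesis, ANLN (anillin), a scaffold of the cleavage furrow, rose with 0.69 (SE 0.16), and the kinesins KIF15 and KIF14 fell with -0.62 (SE 0.17) and -0.56 (SE 0.18) in the authors' deposited table. The other members of these lists did not pass. The shares that fell were, in turn, 14.3%, 11.8% and 8.33%, against 9.28% of all genes tested and 13.1% at a mean of at least 100. In the last list 4.17% rose, against 9.89% and 13.2%.

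Of 15 genes of mitotic entry and G2/M transcription, 2 rose (13.3%) and 3 fell (20.0%). Over all genes tested 9.89% were higher and 9.28% lower, and at a mean of at least 100 the shares were 13.2% and 13.1%. PBK, a mitotic kinase, had fitted counts of 2345 in knockout cells and 643 in wild-type cells, a log2 fold change of 1.87 (SE 0.25, DESeq2 adjusted p = 3.30e-12) in the authors' deposited table. LIN54 and LIN37, subunits of MuvB, had log2 fold changes of 0.64 (SE 0.22) and -1.34 (SE 0.42) in the authors' deposited table, LIN54 higher and LIN37 lower in knockout cells. CDC25C, the phosphatase that activates CDK1, fell with -0.93 (SE 0.32), and MYBL2, which encodes B-MYB, with -0.49 (SE 0.18, DESeq2 adjusted p = 0.0373) in the authors' deposited table. LIN54 and MYBL2 did not pass with the median of the surrounding peaks subtracted. FOXM1 had 3423 in knockout cells and 4511 in wild-type cells and did not pass, with a log2 fold change of -0.40 (SE 0.17, DESeq2 adjusted p = 0.0841) in the authors' deposited table.

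**Figure D3:**
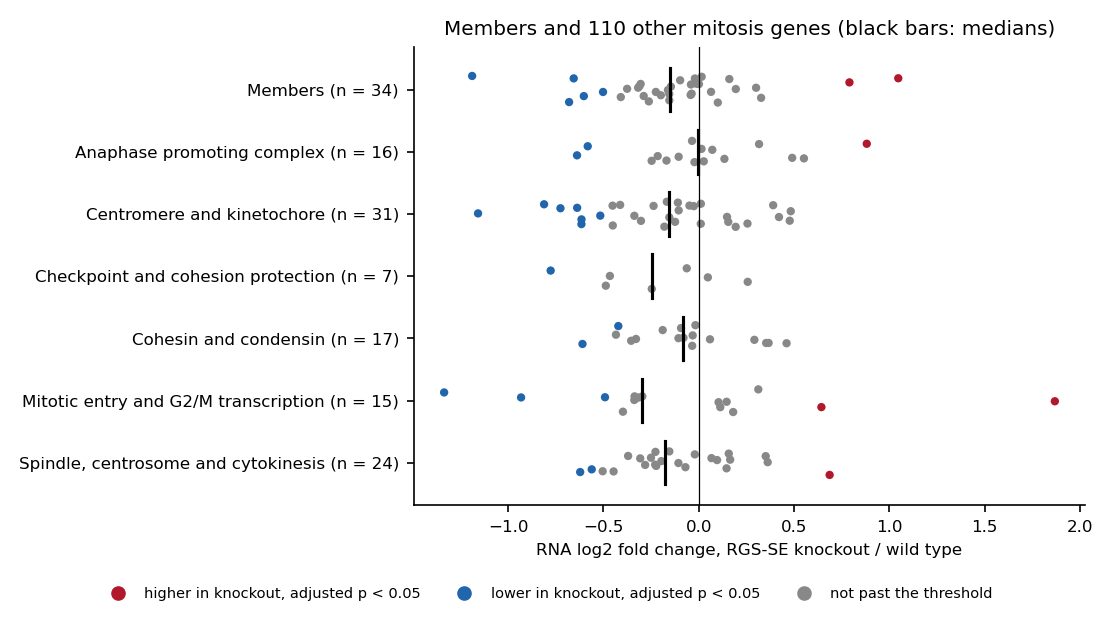
RNA log2 fold change, RGS-SE knockout over wild type, of the 34 members and of 110 other mitosis genes in 6 lists, 1 point a gene with a small vertical jitter, and the median of each list as a black bar. Each list has points on both sides of 0, medians lie below 0, and PBK (1.87) is the point farthest to the right.

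Chromatin accessibility was compared at 75 peaks. In knockout cells 11 peaks rose (14.7%), against 20.4% of all peaks, and 6 fell (8.0%), against 15.5% of all peaks, so that neither share was above that of peaks at large. Of the 75, 31 lay within 1 kb of the start of their gene, 1 a member, and 44 lay farther away. The peaks HOMER called promoter-TSS numbered 23, 1 for each of 23 members. Of these 3 rose (13.0%), against 14.2% of all promoter-TSS peaks, and 2 fell (8.70%), against 20.0%. The median size of the members' promoter log2 fold changes was 0.09, and that of all promoter-TSS peaks was 0.17.

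PLK1 had the promoter peak that opened most. At chr16:23678295-23679679 it had fitted counts of 547 in knockout cells and 266 in wild-type cells, with a log2 fold change of 1.04 (SE 0.13, DESeq2 adjusted p = 4.50e-14) in the authors' deposited table. Another PLK1 peak, 8614 bases before the start, had 191 in knockout cells and 89.7 in wild-type cells (log2 fold change 1.09, SE 0.23, in the authors' deposited table). PLK1 RNA did not pass beside them, and the promoter window printed above, with 1 CCAAT and 1 TTTGAA, lies inside the promoter peak. TTK's promoter peak, at chr6:80004045-80005215, had 1392 in knockout cells and 985 in wild-type cells, a log2 fold change of 0.50 (SE 0.08, DESeq2 adjusted p = 1.07e-09) in the authors' deposited table. CCNB1's promoter peak had 717 in knockout cells and 592 in wild-type cells, a log2 fold change of 0.28 (SE 0.10, DESeq2 adjusted p = 0.0216) in the authors' deposited table.

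CENPA and MAD2L1 had promoter peaks that were lower in knockout cells, around the windows printed above. CENPA's, at chr2:26785476-26786731, had fitted counts of 874 in knockout cells and 1474 in wild-type cells, with a log2 fold change of -0.75 (SE 0.08, DESeq2 adjusted p = 9.94e-20) in the authors' deposited table. MAD2L1's had 1469 in knockout cells and 1650 in wild-type cells, a log2 fold change of -0.17 (SE 0.07, DESeq2 adjusted p = 0.0343) in the authors' deposited table. That region also covers the start of the divergent transcript MAD2L1-DT. The start peaks of BUB1, CCNB1, CDC20 and INCENP, among others, likewise cover the start of another annotated gene.

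Side by side, 2 members passed in the same direction in RNA and at the promoter. TTK was higher in both, and CENPA was lower in both. With the median of the surrounding peaks subtracted, TTK passed in neither, while CENPA passed in both. The share of all genes that passed in both was not computed. The other RNA changes came without a promoter change past the threshold. BUB1's promoter peak had fitted counts of 639 in knockout cells and 599 in wild-type cells, a log2 fold change of 0.09 (SE 0.10) in the authors' deposited table, next to an RNA log2 fold change of 1.05. The start peaks of CDC20, BIRC5 and INCENP had log2 fold changes of 0.06 (SE 0.08), 0.03 (SE 0.13) and 0.06 (SE 0.09) in the authors' deposited table. The start of AURKA lies in a peak that HOMER named for its neighbour CSTF1, with 846 in knockout cells and 917 in wild-type cells (log2 fold change -0.12, SE 0.09, in the authors' deposited table). The start of HMMR lies in a peak named for NUDCD2, which fell with a log2 fold change of -0.22 (SE 0.08, DESeq2 adjusted p = 0.0143) in the authors' deposited table while HMMR RNA did not move past its error. The start of KIF20A lies in a peak named for BRD8, with a log2 fold change of 0.07 (SE 0.08) in the authors' deposited table.

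The remaining 18 promoter peaks did not pass, and nor did the 8 peaks within 1 kb of a start that HOMER gave another class, for BUB1B, CDK1, CCNA2, INCENP, KIF2C, TOP2A, KIF23 and PTTG1. CENPE, KIF11 and CDCA8 had log2 fold changes of -0.25 (SE 0.14), -0.20 (SE 0.10) and -0.12 (SE 0.06) in the authors' deposited table. MKI67, NEK2, CCNB2 and AURKB had 0.17 (SE 0.09), 0.13 (SE 0.10), 0.11 (SE 0.10) and 0.09 (SE 0.11) in the authors' deposited table. UBE2C, CENPF, TPX2, DLGAP5, BUB3, NDC80, NUF2 and ESPL1 lay within 0.05 of 0 in the authors' deposited table.

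**Figure D4:**
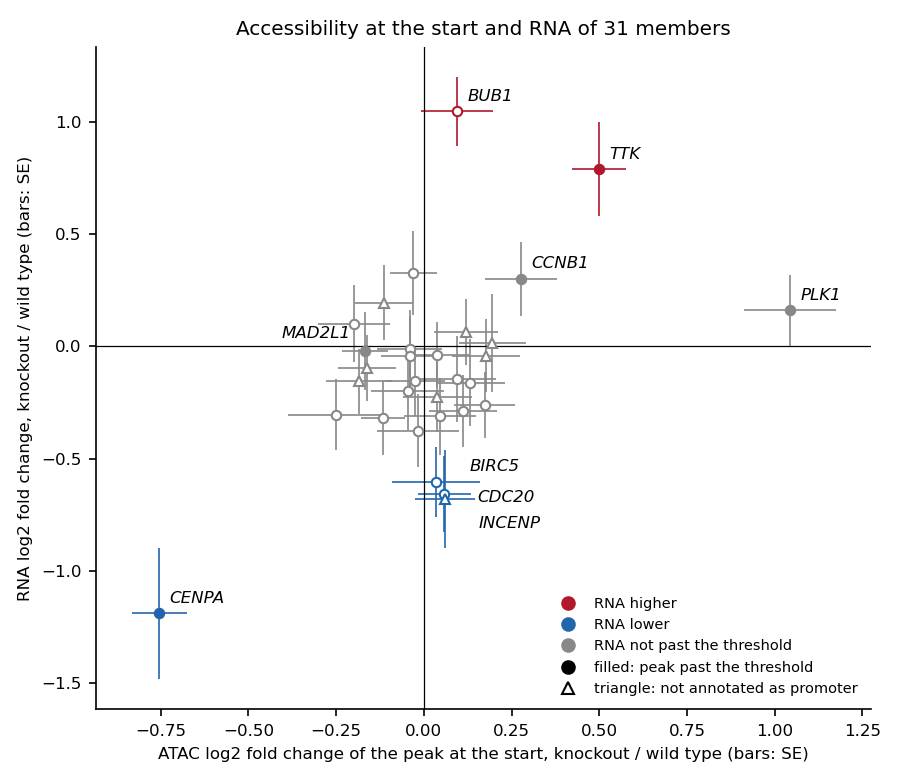
ATAC log2 fold change of the peak within 1 kb of the start (horizontal) against RNA log2 fold change (vertical), RGS-SE knockout over wild type, for the 31 members with such a peak, with standard errors as bars. CENPA (-0.75 and -1.19) and TTK (0.50 and 0.79) lie in opposite corners, BUB1 lies high above 0.09 and PLK1 far to the right at an RNA value of 0.16.

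Farther from the starts, 8 of the 44 peaks rose (18.2%), against 20.4% of all peaks, and 4 fell (9.09%), against 15.5%. Neither share was above that of peaks at large. Those include peaks at promoters, and the shares over all peaks beyond 1 kb were not computed. The gene with the most assigned peaks, BUB3, had 8. Its peak 87194 bases past the start, between genes, had fitted counts of 570 in knockout cells and 243 in wild-type cells, a log2 fold change of 1.23 (SE 0.13, DESeq2 adjusted p = 7.72e-19) in the authors' deposited table. Another BUB3 peak, 215456 bases past the start, had 77.3 in knockout cells and 21.96 in wild-type cells (log2 fold change 1.82, SE 0.38, in the authors' deposited table), and the one at 11154 bases, near the end of the gene, had 25.2 in knockout cells and 63.9 in wild-type cells (log2 fold change -1.34, SE 0.39, in the authors' deposited table). BUB3 thus had distal peaks that opened and distal peaks that closed, around a promoter with a log2 fold change of -0.03.

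A peak 41982 bases past the start of CDK1 had fitted counts of 72.9 in knockout cells and 36.2 in wild-type cells, a log2 fold change of 1.01 (SE 0.35, DESeq2 adjusted p = 0.0150) in the authors' deposited table. A peak 47970 bases before CCNB2 had 21.9 in knockout cells and 45.8 in wild-type cells, a log2 fold change of -1.06 (SE 0.44, DESeq2 adjusted p = 0.0470) in the authors' deposited table. Such distal peaks are assigned to a gene by the nearest start only. A peak in an intron of BUB1, 2658 bases past the start, was chosen after its values were seen. At chr2:110674951-110675859 it had 564 in knockout cells and 352 in wild-type cells, a log2 fold change of 0.68 (SE 0.12, DESeq2 adjusted p = 1.88e-07) in the authors' deposited table, while the promoter peak beside it did not pass.

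The changes in accessibility at PLK1 and TTK, and in RNA at TTK, were shared by the regions around them. PLK1 RNA, at 0.16, lay below the median of the genes around it. Within 2.5 Mb of the start of PLK1, 97 of 165 peaks rose and 6 fell in knockout cells, and their median log2 fold change was 0.79, and 27 of 58 genes were higher in RNA and 0 lower, with a median of 0.96. Most peaks before the start of PLK1 lay above 0, while most from 1.05 Mb past it lay below 0. The values centred on that median therefore depend on the window, and other windows were not tried. Around TTK, 31 of 64 peaks rose and 7 fell (median 0.62), and of 11 genes 6 rose and 1 fell (median 0.99). For the other 32 members the median of the peaks around them lay between -0.14 and 0.18 and the median of the genes around them between -0.29 and 0.41. Such regions also held some of the other pathway genes named above. The median of the peaks around PBK was 0.79, and after its subtraction PBK was still higher. Around RAD21 that median was -0.82, around CENPT -0.66 and around CENPN -0.59. The medians around BUB1 and CENPA were both 0.04 for peaks, and single peaks there differed more. The peaks next to CENPA's start peak, at -0.0217 and 0.0447 Mb from the start, were not assigned to CENPA. Their log2 fold changes were -4.46 and 0.30 in the authors' deposited table. The first of these lies near base 26764289, where the annotated span of CENPA begins, upstream of the start used here. The RNA of CENPA was set beside the downstream start peak only. Any link between the upstream peak and CENPA RNA was not tested.

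With the median of the surrounding peaks subtracted from each value, and the p-values recomputed and adjusted over the whole table, TTK and PLK1 no longer passed as higher. TTK's RNA log2 fold change became 0.17 (adjusted p = 0.685, Wald test with local centring) and that of its promoter peak -0.12 (adjusted p = 0.222). PLK1's promoter peak became 0.25 (adjusted p = 0.140) and its RNA -0.63 (adjusted p = 0.000967), below 0 and past the threshold. MKI67 was also newly called lower in RNA. BUB1 and CENPA kept their RNA calls, and CENPA's promoter peak became -0.79. With local centring 1 member was higher and 7 were lower in RNA, against 16.8% of genes called in either direction, and 6 peaks were higher and 4 lower, against 30.8% of peaks called. The source of these regional differences was not tested.

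**Figure D5:**
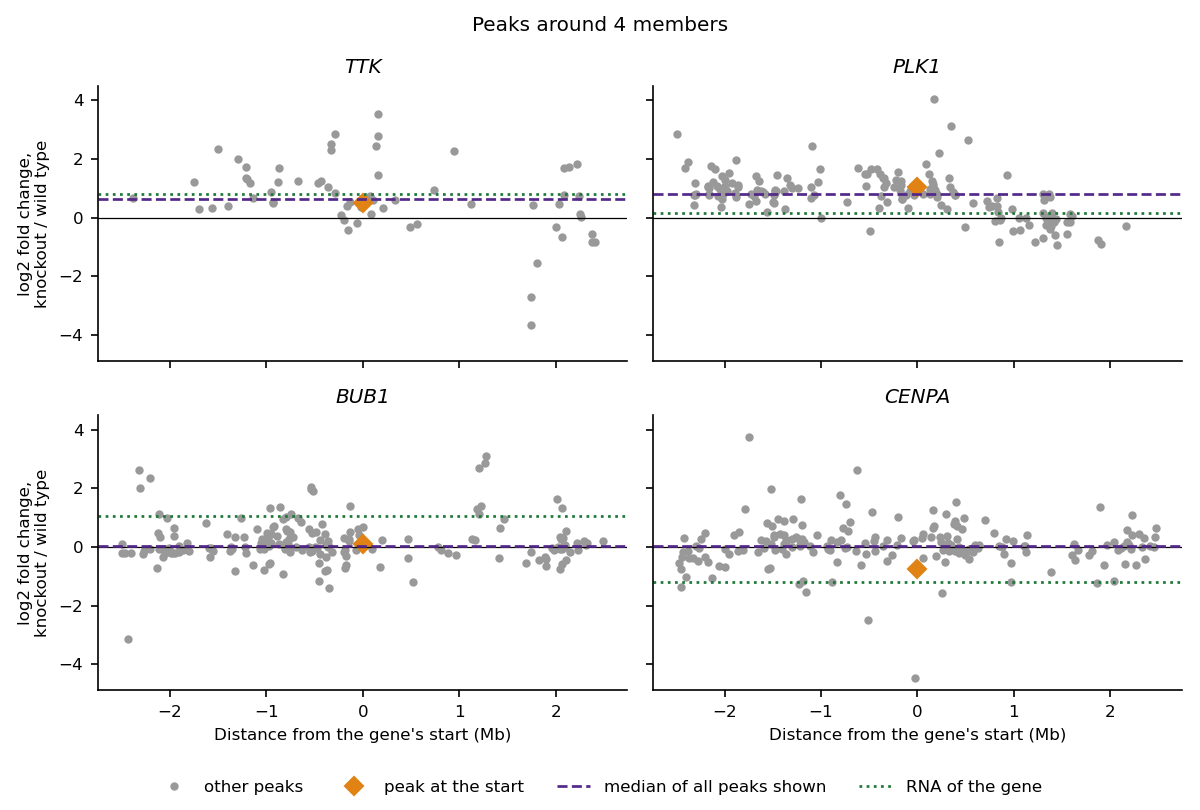
ATAC log2 fold change, RGS-SE knockout over wild type, of every peak within 2.5 Mb of the start of TTK, PLK1, BUB1 and CENPA against the distance from the start in Mb. Diamonds mark the peak at the start, dashed lines the median of the peaks shown (0.62, 0.79, 0.04 and 0.04) and dotted lines the RNA log2 fold change of the gene (0.79, 0.16, 1.05 and -1.19).

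Stricter rules left few members. With a test against a 1.5-fold change, 0 of the 34 passed in RNA, against 3.94% of genes, and BUB1 had an adjusted p of 0.0616, while 3 of the 75 peaks passed, all higher, against 8.75% of peaks. With Wald statistics divided by their own spread over the table, BUB1 alone passed in RNA, against 3.94% of genes, with 3 of the 75 peaks, against 3.38%. At an adjusted p under 0.01, BUB1, TTK, CDC20, CENPA and BIRC5 passed by the DESeq2 Wald test, against 12.7% of genes, and 9 peaks, against 26.6% of peaks. With each chromosome's median subtracted, 18.3% of genes and 34.8% of peaks passed, and BUB1 was then the 1 member higher in RNA. The members lower in RNA then numbered 7, with CENPE (-0.47) and KIF20A (-0.54) added. Of the members' peaks 10 were then higher and 4 lower, and the promoter peaks of TTK (0.14) and MAD2L1 (-0.15) did not pass. Among peaks with a mean of at least 100, 40.3% passed, and of the members' peaks 9 were then higher and 3 lower.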

How the data were processed

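Raji RGS-SE knockout and wild-type cells were profiled by RNA-seq and ATAC-seq. Per the submitters' processing notes, reads were trimmed (Trimmomatic, Trim Galore, cutadapt) and analysed with Bowtie2, STAR, HOMER, featureCounts and DESeq2 on GRCh38 (hg38), with versions, peak caller and strand setting not given in the sources used here. The tables deposited by the authors hold, per the file headers, DESeq2's mean normalised count (a signal), log2 fold change with its SE on the log2 scale, Wald statistic (a score), p-value and adjusted p-value for each gene or peak, and HOMER's distance to the start in bp, another deposited unit. The tables hold no value per library, so edgeR, fits that leave out a library and paired fits were not run, and the total per library is unknown; summed mean counts were 32830399 for RNA and 19927559 for ATAC. The libraries are labelled biological replicates, but separate clones are not stated, and the p-values then measure only the spread between these samples.

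Groups came from the sample titles, and knockout was compared with wild type (2 libraries each per assay) by the authors' two-sided DESeq2 Wald test with Benjamini-Hochberg adjustment over the whole table, at 0.05. Computed here were fitted counts per genotype, normal 95% intervals, counts per kb of GENCODE 44 exons, and alternatives: a test against 1.5-fold, statistics divided by 1.4826 times their median absolute deviation, no independent filter, medians of peaks within 2.5 Mb (at least 10) or of the chromosome subtracted, a threshold of 0.01 and a mean of at least 100. The peak nearest each start within 1 kb, of any class, was added after seeing the data. Scripts were tested on simulated data. The members, role groups and pathway lists were chosen with earlier results of these data known. Every member was named; of each pathway list up to 3 genes per direction with the smallest adjusted p, with FOXM1 and MYBL2; of peaks, each promoter peak and others past the threshold with a log2 fold change of at least 1 in size. Motifs were searched in RefSeq promoters (GRCh38.p14). Python 3.11.15, pandas 2.3.3, numpy 2.4.6, scipy 1.17.1 and matplotlib 3.10.9 were used.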

Additional observations from a re-analysis of the deposited data

How the results depend on the processing

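Against 2 members higher and 5 lower in RNA, the test against a 1.5-fold change gave 0 and 0, scaled statistics 1 and 0, local centring 1 and 7, chromosome centring 1 and 7, and a threshold of 0.01 gave 2 and 3. Against 11 peaks higher and 6 lower, the 1.5-fold test gave 3 and 0, scaled statistics 2 and 1, local centring 6 and 4, chromosome centring 10 and 4, a threshold of 0.01 gave 7 and 2, a mean of at least 100 gave 9 and 3, and promoter-TSS peaks or peaks within 1 kb each gave 3 and 2. The cause of the changes under centring was not tested; the stricter tests pass fewer by construction. RNA log2 fold changes turned sign under local centring for PLK1 (-0.63), NDC80 (0.12), HMMR (-0.036) and NUF2 (0.00053), and under chromosome centring for HMMR (-0.13), PTTG1 (-0.12) and KIF11 (-0.0012). At start peaks local centring turned TTK (-0.12), NDC80 (0.094), DLGAP5 (0.078), ESPL1 (0.015), TPX2 (0.0098), MKI67 (-0.0087) and NUF2 (0.0025), and chromosome centring turned NDC80 (0.12), TPX2 (0.052), ESPL1 (0.044), BUB3 (0.016) and DLGAP5 (0.0026). Of these, PLK1 RNA and the TTK peak alone had a call at stake. Of the RNA values under alternatives, 211 kept direction and side of the threshold, 17 lost it, 3 gained it and 7 turned; of the ATAC values, 161, 25, 1 and 12 did so. Leaving out the independent filter changed no count. No paired analysis was possible because the tables hold no values per library, which also prevented leaving out replicates and the edgeR fit. With 2 libraries per genotype, median SEs at means of at least 100 were 0.21 in RNA and 0.16 in ATAC, which limits smaller differences.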
